A study of Mus musculus with 6 samples.

Results

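This account follows the SR and hnRNP splicing factor genes of RAW 264.7 cells, a mouse macrophage-like line, given a plant polysaccharide. Genes were taken by symbol from the count table: every Srsf and Hnrnp gene without a pseudogene suffix, the SR-like genes Tra2a and Tra2b, the U2AF genes U2af1 and U2af2, and the polypyrimidine tract binding genes Ptbp1 and Ptbp3. The rule found 37 of the 22192 genes in the table, made up of 13 SR and Tra2 genes, 20 hnRNP genes and 4 U2AF and PTB genes. The treated group was 3 libraries of cells kept for 24 h with 200 µg/mL of ASPS-A1, a polysaccharide of acidic type isolated from the leaves of Acanthopanax senticosus. The titles number these libraries ASPS-A1, ASPS-A2 and ASPS-A3 while the treatment label of each is ASPS-A1, so they were grouped by that label, and whether they are replicates of 1 preparation is not stated beyond it. The control group was 3 libraries labelled control, with no further detail on what these cells received. All 6 libraries came from this 1 line of BALB/c origin, and nothing in the labels says that the libraries of a group were separate cultures, so p-values measure the spread between these libraries, which may be technical.

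SR proteins carry RNA recognition motifs and a tail rich in arginine and serine, and when bound to exons they recruit the splicing machinery. The hnRNP proteins coat nascent transcripts and often act against SR proteins at the same exons, so that the balance between the families helps to set which exons are kept. Many of these genes also control their own messenger RNA, by splicing in an exon with an early stop that sends the transcript to nonsense-mediated decay. In macrophages, regulated splicing is known to shape inflammatory transcripts.

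The libraries held 19989318 to 26137127 counts, with the 3 ASPS-A1 libraries below the 3 control libraries. Values below are CPM, counts relative to library size after scaling with TMM factors, a correction for differences in RNA composition. Differences are log2 fold changes, ASPS-A1 minus control, with their standard error (SE), tested with edgeR's quasi-likelihood test and Benjamini-Hochberg adjustment over the 11686 genes tested, with a threshold of 0.05. The labelled cell type was checked against its markers: 8 macrophage markers summed to 2913 to 3056 CPM with ASPS-A1 and 1988 to 2012 CPM in control, with Mertk at under 1 CPM. Of the markers of other cell types, Epcam, Krt8, Cd3e and Cd3g had no count, and the summed level stayed under 1 CPM for fibroblasts, epithelium and T cells. The B cell list reached 30.1 to 38.3 CPM, nearly all from Cd79b, and the endothelial list 6.93 to 8.29 CPM in control and 12.7 to 13.7 CPM with ASPS-A1, mostly from Pecam1. The macrophage and endothelial sums thus differed between the groups, and their part in the results below was not tested. In bulk RNA, fewer cells of a type and less RNA per cell cannot be told apart.

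Of the 37 genes, 36 were abundant enough to test, and Srsf12 was not, with 0 to 5 counts a library. Among the 36, 18 were higher and 10 lower with ASPS-A1, and 8 were not past the threshold. Across all genes tested, 65.3% passed the threshold, 32.4% higher and 33% lower, so a changed splicing factor gene is in itself no rarity here. Treated and control libraries were fully separated for 31 of the 36 genes, and for 68.5% of all genes tested. Most differences were small. Only 6 of the 36 were more than 1.5-fold higher (12.8% of all genes were) and 1, Srsf5, was more than 1.5-fold lower (14.5% of all genes were). The median log2 fold change of the 36 was 0.12, against −0.021 over all genes tested, and the median absolute value was 0.23 against 0.38. The median of the 36 turned to −0.073 with library totals, where the median over all genes tested was −0.22.

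The scale matters for the smaller differences. Scaling by library totals alone shifted the log2 fold changes by −0.20 (median over all genes), and 12 of the 36 genes were then higher and 17 lower, against 21.6% and 46.7% of all genes. Offsets that remove trends with transcript length and GC content left 17 higher and 9 lower, against 32.3% and 30% of all genes. As a share of all counts the 37 genes did not differ beyond their spread, at 1.07% ± 0.0185 with ASPS-A1 and 1.08% ± 0.00779 in control (SD, n = 3). On the TMM scale their sum was 11404 to 11497 CPM with ASPS-A1 and 9985 to 10241 CPM in control. Of the 28 genes called, 17 kept their direction and their call under all 15 alternatives, 10 higher and 7 lower. How many of all genes tested did so was not counted, so the 17 cannot be set against that share. The 10 higher were Srsf2, Srsf3, Tra2a, Tra2b, Hnrnpdl, Hnrnpd, Hnrnpa1, Hnrnpm, Ptbp1 and U2af2. The 7 lower were Srsf1, Srsf5, Hnrnph2, Hnrnph3, Hnrnpa0, Hnrnpf and Ptbp3.

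**Figure D1:**
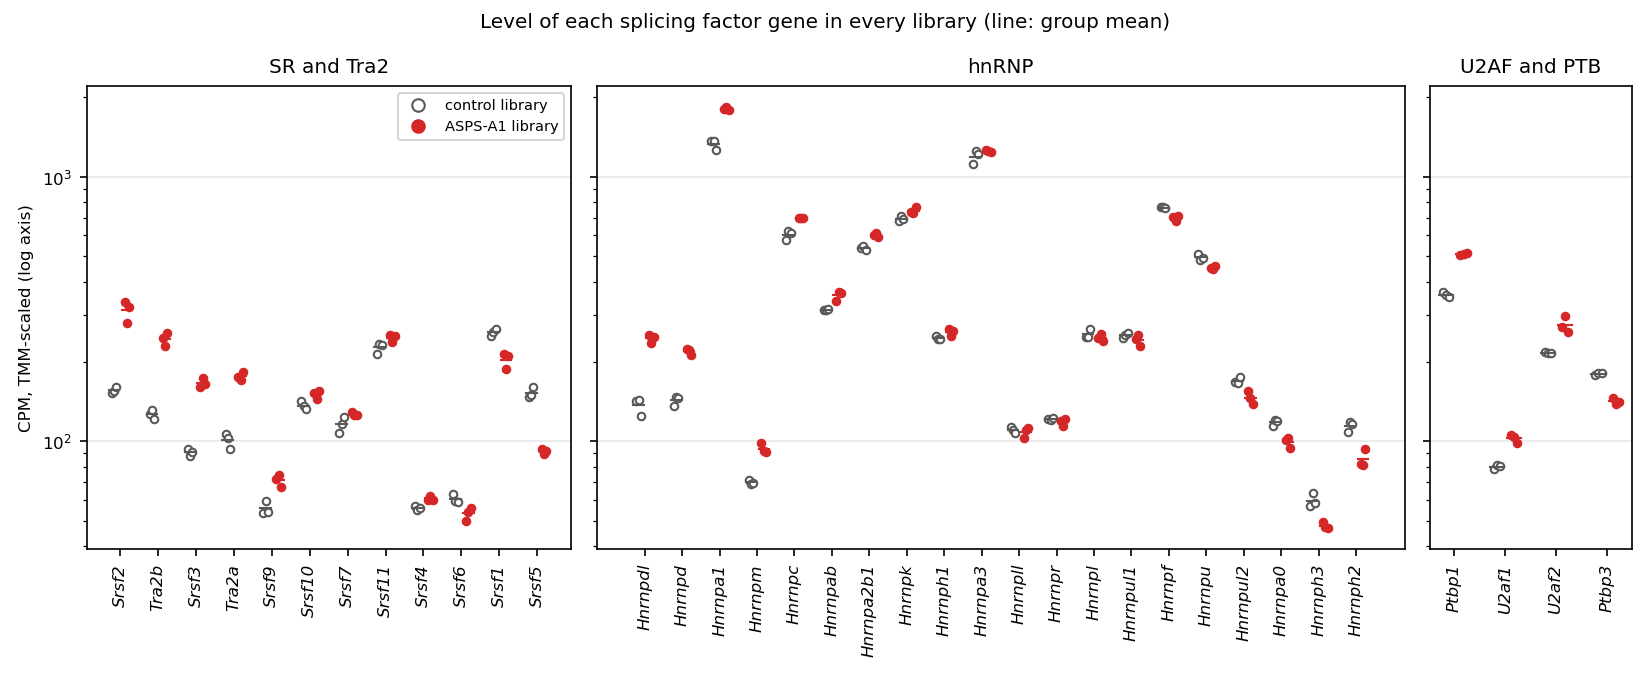
TMM-scaled CPM (log axis) of the 36 tested genes in each control library (open circles) and each ASPS-A1 library (filled circles), with group means as lines and genes ordered by fold change within a family. Srsf2, Tra2b, Srsf3, Tra2a, Hnrnpdl and Hnrnpd show the widest gaps upward and Srsf5 the widest gap downward.

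The SR and Tra2 genes moved apart from each other. Of the 12 tested, 8 were higher, 3 were lower and Srsf4 was not past the threshold, and the groups did not overlap for any of the 12. These are 66.7%, 25% and 100% for higher, lower and not overlapping, against 32.4%, 33% and 68.5% of all genes tested. With library totals 5 were higher and 3 lower, and with the length and GC offsets 6 and 3. The shares of all genes were 21.6% and 46.7% with library totals and 32.3% and 30% with the offsets. The family summed to 1826 to 1941 CPM with ASPS-A1 and 1510 to 1545 CPM in control. As a share of all counts the gap was narrower, at 0.178% ± 0.00834 with ASPS-A1 and 0.164% ± 0.00253 in control (SD, n = 3). The 4 largest rises were in Srsf2, Tra2b, Srsf3 and Tra2a, and the other 4 called genes of the family that rose had log2 fold changes of 0.36 or less.

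Srsf2, also known as SC35, binds exonic splicing enhancers. It measured 334.9, 279.2 and 322.8 CPM with ASPS-A1 and 152.4, 154.9 and 159.7 CPM in control. Every ASPS-A1 library stood far above every control library, and replicate 2 was the lowest of the treated group. Srsf2 was 2.01-fold higher (log2 fold change 1.00 ± 0.053 SE, adjusted p = 8.10e-20), above 96.3% of all genes tested. By the GENCODE annotation, 25.3% of its exon length is shared with Mfsd11 and Mettl23, and whether counting used strand was not given in the sources used here. Those neighbours were far less abundant, at 16.5 and 11.3 CPM with ASPS-A1 and 19.9 and 9.67 CPM in control.

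Tra2b, a sequence-specific activator with an arginine-serine domain at each end, measured 246.4, 229.1 and 255.7 CPM with ASPS-A1 and 126.9, 130.7 and 121.3 CPM in control. Its close relative Tra2a measured 175.4, 169.7 and 182.2 CPM against 106.2, 102.3 and 93.0 CPM. In both genes the groups were well separated. Tra2b was 1.93-fold higher (0.95 ± 0.050 SE, adjusted p = 2.21e-21) and Tra2a 1.75-fold higher (0.81 ± 0.053 SE, adjusted p = 4.48e-18). No exon of either is shared with another annotated gene, though 4 pseudogenes hold a stretch of at least 300 bases at least 95% identical to the Tra2b transcript.

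Srsf3, the smallest SR protein, which also takes part in messenger RNA export, measured 160.8, 173.5 and 163.7 CPM with ASPS-A1 and 92.9, 88.1 and 90.8 CPM in control. It was 1.83-fold higher (0.87 ± 0.051 SE, adjusted p = 1.19e-19), and the lowest treated library lay well above the highest control library. Srsf7, its nearest relative and likewise a shuttling export adaptor, had 125.3 to 128.8 CPM against 107.3 to 123.5 CPM. That difference of 0.13 on the log2 scale (adjusted p = 0.0277) lost its call without ASPS-A1 replicate 1, control replicate 1 or control replicate 2, and with upper-quartile factors. It turned to −0.064 with library totals and to −0.0050 with the length and GC offsets.

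Srsf9, whose protein resembles that of Srsf1, had a log2 fold change of 0.36 ± 0.063 SE (71.1 ± 3.65 against 55.6 ± 3.17 CPM, adjusted p = 2.82e-06), which was 0.16 with library totals and 0.014 (adjusted p = 0.845) with the length and GC offsets. Srsf10, a splicing repressor when dephosphorylated during heat shock, had 0.14, and Srsf11, which was among the 2 most abundant genes of the family by CPM, had 0.13. Srsf11 measured 251.6, 237.8 and 250.2 CPM with ASPS-A1 and 213.2, 233.7 and 231.1 CPM in control, so that the groups were separated by only a narrow margin. Both lost their calls with upper-quartile factors and had values of −0.051 and −0.070 with library totals. Srsf10 also lost its call without control replicate 3, and Srsf11 without ASPS-A1 replicate 1, ASPS-A1 replicate 3 or control replicate 1. Srsf4 had 0.12 (adjusted p = 0.0857), with 43.0% of its exon length shared with a predicted gene.

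Srsf5 was the SR gene with the largest fall. It measured 93.4, 89.5 and 91.7 CPM with ASPS-A1 and 146.3, 149.6 and 160.2 CPM in control, with a wide gap between the groups. It was 1.66-fold lower (−0.73 ± 0.052 SE, adjusted p = 9.26e-17), and its value was −0.93 with library totals and −1.05 with the length and GC offsets. Srsf1, the founding member of the family, measured 212.9, 187.0 and 210.7 CPM against 249.6, 258.6 and 264.6 CPM in control. It was 1.27-fold lower (−0.34 ± 0.049 SE, adjusted p = 6.40e-08), with −0.53 under library totals and −0.15 under the offsets.

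Srsf6, which with Srsf4 and Srsf5 forms a group of SR proteins with paired recognition motifs, measured 49.9, 54.1 and 55.9 CPM with ASPS-A1 and 63.3, 59.1 and 59.0 CPM in control. Its log2 fold change was −0.18 ± 0.065 SE (adjusted p = 0.0118), or −0.38 with library totals. The call was lost without ASPS-A1 replicate 1 (−0.14, adjusted p = 0.0999) and without control replicate 1 (−0.15, adjusted p = 0.0735).

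Upstream sequence is shown for the 4 SR and Tra2 genes with the largest rises and the 2 with the largest falls, to set side by side the start regions of genes that moved in opposite directions. Each line gives the 150 bases before the annotated start, 5′ to 3′ on the gene's strand, from RefSeq on GRCm38.p6. Capitals mark a match on either strand to CCAAT (the NF-Y box), CCGGAA (an ETS factor core) or TATAAA (the TATA box). The windows are chr11:116853095-116853244 on the minus strand for Srsf2, chr17:29032510-29032659 on the plus strand for Srsf3, chr6:49264053-49264202 on the minus strand for Tra2a, chr16:22266006-22266155 on the minus strand for Tra2b, chr12:80945349-80945498 on the plus strand for Srsf5 and chr11:88047223-88047372 on the plus strand for Srsf1.
Srsf2: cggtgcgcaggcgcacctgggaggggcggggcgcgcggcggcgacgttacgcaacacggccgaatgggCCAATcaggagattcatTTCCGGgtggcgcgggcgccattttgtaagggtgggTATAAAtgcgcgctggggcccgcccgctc
Srsf3: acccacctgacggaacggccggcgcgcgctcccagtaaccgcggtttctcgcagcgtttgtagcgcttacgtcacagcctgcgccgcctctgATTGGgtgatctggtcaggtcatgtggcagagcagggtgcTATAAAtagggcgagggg
Tra2a: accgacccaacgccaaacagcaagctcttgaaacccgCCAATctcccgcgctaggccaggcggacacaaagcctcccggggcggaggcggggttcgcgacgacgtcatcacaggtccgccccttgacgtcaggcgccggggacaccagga
Tra2b: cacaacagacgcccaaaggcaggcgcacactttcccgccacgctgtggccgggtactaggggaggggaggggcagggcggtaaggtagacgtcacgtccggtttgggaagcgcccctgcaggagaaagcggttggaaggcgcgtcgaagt
Srsf5: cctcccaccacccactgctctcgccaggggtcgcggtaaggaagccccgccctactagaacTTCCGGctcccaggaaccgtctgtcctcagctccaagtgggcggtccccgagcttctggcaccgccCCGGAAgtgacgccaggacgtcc
Srsf1: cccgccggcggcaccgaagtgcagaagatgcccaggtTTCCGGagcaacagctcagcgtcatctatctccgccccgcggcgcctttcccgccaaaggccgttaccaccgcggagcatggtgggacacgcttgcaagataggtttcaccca
Srsf2 and Srsf3 each held a TATAAA, starting at −29 and −18 from the start, and a CCAAT box further upstream, at −82 and −58. Tra2a held a CCAAT at −113 and Tra2b none of the motifs searched. Srsf5 held CCGGAA at −89 and −23 and Srsf1 at −113. Srsf1 also has a CCAAT that spans its start and runs past the end of the window shown, and is therefore not in capitals, so CCAAT occurs near the start of genes of both directions.

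Promoter windows of 250 bases before to 50 after the start were found in the RefSeq table for 33 of the 37 genes, some with several starts. CCAAT stood in 20 of the 33 (60.6%), against 43.7% of the 9277 tested genes with a window and 41.1% of all 27025 genes in that table. It was in 10 of the 17 genes called higher and 4 of the 8 called lower. Of these, Hnrnpa1, Ptbp1, Srsf2, Srsf3 and Tra2a, and Hnrnpa0, Hnrnpf, Hnrnph2 and Srsf1, kept their calls under all 15 alternatives. TATAAA stood in 4 of the 33 (12.1%), against 8.49% of the tested genes and 15.7% of all genes. The 4 were Srsf2, Srsf3, Hnrnpab and Hnrnpm, all called higher, and a match at any place in the window was counted. In Hnrnpab the match lay after the start, and in Hnrnpm more than 150 bases before it. Only in Srsf2 and Srsf3 did it lie within the 150 bases before the start. Hnrnpab no longer passed the threshold with library totals. CCGGAA stood in 12 of the 33 (36.4%), against 32.4% of the tested genes and 16.7% of all genes, and was in 6 genes called higher and 4 called lower. Of these only Srsf2 and Hnrnpd, and Srsf1, Srsf5 and Hnrnpf, kept their calls under all 15 alternatives, and Hnrnpa2b1, Hnrnpab, Srsf7, Srsf11 and Hnrnpu changed sign under at least 1. The E-box CACGTG stood in 6 (18.2%, against 11.8% of the tested genes and 8.09% of all genes), with Ptbp1, Hnrnpd and Hnrnpm among the genes that rose and Hnrnpf and Hnrnph2 among those that fell. The palindromic NRF1 motif stood in Srsf11 alone (3.03%, against 2.45% and 1.07%). These matches on both strands are letters in a window, not sites of binding.

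The hnRNP genes held most of the summed level of the 37 genes, and the shares that changed were near those of all genes. All 20 were tested, of which 7 were higher, 6 lower and 7 not past the threshold, and the groups did not overlap for 15. These are 35%, 30% and 75% of the family for higher, lower and not overlapping, against 32.4%, 33% and 68.5% of all genes tested. Their median log2 fold change was 0.024, or −0.17 with library totals, against −0.021 and −0.22 over all genes tested. With library totals the split was 4 higher and 13 lower, and with the length and GC offsets 9 higher and 5 lower. Of all genes, 21.6% were higher and 46.7% lower with library totals, and 32.3% and 30% with the offsets. The family took 0.796% ± 0.0105 of all counts with ASPS-A1 and 0.827% ± 0.00672 in control (SD, n = 3), while on the TMM scale it summed to 8510 to 8531 CPM against 7636 to 7866 CPM. The direction of the family's sum therefore turns with the scale.

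Hnrnpdl and Hnrnpd, which encode related proteins that bind AU-rich elements, had the largest rises. The Hnrnpd product, AUF1, is known for promoting the decay of cytokine messenger RNAs. Hnrnpdl measured 252.2, 235.7 and 248.1 CPM with ASPS-A1 and 142.3, 142.8 and 124.8 CPM in control, 1.80-fold higher (0.85 ± 0.051 SE, adjusted p = 5.37e-19). Hnrnpd measured 223.2, 221.8 and 211.0 CPM against 135.6, 146.2 and 145.3 CPM, 1.54-fold higher (0.62 ± 0.049 SE, adjusted p = 2.22e-15), with 5.24% of its exon length shared with a predicted gene. The treated libraries lay above the control libraries in both genes by more than the spread within either group. The third relative, Hnrnpab, had 0.19 ± 0.047 SE (358 ± 15.2 against 315 ± 0.587 CPM, adjusted p = 5.59e-04), a call lost with library totals (−0.011). It shares 29.1% of its exon length with Phykpl, which rose by 0.59 on the log2 scale, from 13.8 to 20.8 CPM.

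Hnrnpa1, a repressor of exon inclusion that opposes SR proteins, was the most abundant gene of all 37. It measured 1802, 1837 and 1786 CPM with ASPS-A1 and 1361, 1371 and 1267 CPM in control, with no overlap between the groups. It was 1.36-fold higher (0.44 ± 0.047 SE, adjusted p = 2.52e-11), or 0.24 with library totals and 0.23 with the length and GC offsets. Hnrnpa3, the second most abundant by CPM, measured 1263, 1254 and 1245 CPM against 1116, 1250 and 1215 CPM. Those groups overlapped (0.072 ± 0.048 SE, adjusted p = 0.187), and the call went both ways, with −0.12 (adjusted p = 0.0106) under library totals and 0.26 (adjusted p = 2.69e-07) under the offsets. Stretches of at least 300 bases at least 95% identical to these transcripts occur in 9 other annotated genes for Hnrnpa1 and 27 for Hnrnpa3, nearly all pseudogenes, and how reads that match several genes were counted was not given in the sources used here. Such stretches also occur in 8 other genes for Hnrnpf, 4 for Srsf3, 3 for U2af1, 2 each for Srsf10 and Hnrnpk, and 1 each for Srsf5, Hnrnpr, U2af2, Ptbp1, Hnrnpc and Hnrnph2, so the values of these genes carry that uncertainty.

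Hnrnpa2b1, the closest relative of Hnrnpa1, had 0.16 ± 0.046 SE (601 ± 9.76 against 539 ± 9.11 CPM, adjusted p = 0.00284), with −0.039 under library totals and −0.12 (adjusted p = 0.00523) under the offsets, so no direction is given for it. Hnrnpa0 fell, at 101.1, 103.1 and 94.0 CPM with ASPS-A1 against 114.1, 120.3 and 119.0 CPM (−0.24 ± 0.053 SE, adjusted p = 8.81e-05), and was −0.44 with library totals. Within the A/B group the changes therefore ran in both directions.

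Hnrnpm, which promotes exon skipping and is known in macrophages for holding back the splicing of innate immune transcripts, rose. It measured 98.1, 91.5 and 91.1 CPM with ASPS-A1 and 71.4, 68.9 and 69.7 CPM in control (0.42 ± 0.057 SE, adjusted p = 1.09e-08), or 0.22 with library totals. A neighbour shares 14.7% of its exon length. Hnrnpc, which binds uridine tracts and guards against the inclusion of exons from repeats, had 698 ± 1.13 against 604 ± 23.9 CPM (0.21 ± 0.047 SE, adjusted p = 1.24e-04), a call lost with library totals (0.014, adjusted p = 0.780).

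Among the hnRNP H and F genes, whose proteins bind runs of guanine, Hnrnph2, Hnrnph3 and Hnrnpf fell and Hnrnph1 did not pass the threshold. Hnrnph2 measured 81.6, 81.1 and 93.3 CPM with ASPS-A1 and 108.2, 118.5 and 116.2 CPM in control, and was 1.34-fold lower (−0.42 ± 0.058 SE, adjusted p = 1.42e-08). Hnrnph3 measured 49.4, 47.2 and 46.7 CPM against 56.9, 63.6 and 58.0 CPM (−0.32 ± 0.066 SE, adjusted p = 4.44e-05), or −0.51 with library totals and −0.48 with the offsets. In neither gene did the groups overlap. Hnrnpf had 699 ± 17.2 against 765 ± 1.77 CPM (−0.13 ± 0.046 SE, adjusted p = 0.0130), with −0.32 under library totals and −0.20 under the offsets, and 26.5% of its exon length is shared with 4933440N22Rik, at under 1 CPM, and Gm43863, not analysed here. Hnrnph1, the most abundant of the H genes, had 0.076 (adjusted p = 0.146), with −0.12 (adjusted p = 0.0202) under library totals and −0.034 under the offsets.

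Among the U-type hnRNP genes, Hnrnpu encodes a scaffold protein of the nuclear matrix. Hnrnpul2 measured 154.3, 144.9 and 138.5 CPM with ASPS-A1 and 166.8, 165.5 and 175.4 CPM in control (−0.21 ± 0.050 SE, adjusted p = 2.40e-04), with −0.41 under library totals and 0.038 (adjusted p = 0.473) with those offsets for length and GC. Hnrnpu had 452 ± 6.17 against 495 ± 13.1 CPM (−0.13 ± 0.046 SE, adjusted p = 0.0118), with −0.33 under library totals and 0.084 under the offsets (adjusted p = 0.0657), and the call was lost without control replicate 1 (adjusted p = 0.0667). Hnrnpul1 had −0.059 (adjusted p = 0.276).

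Besides Hnrnph1, Hnrnpul1 and Hnrnpa3, 4 hnRNP genes did not pass the threshold. Hnrnpl, which binds CA repeats, had −0.049, its paralog Hnrnpll −0.024, Hnrnpr −0.041 and Hnrnpk, a KH-domain protein that binds cytidine tracts, 0.10 (adjusted p = 0.0575). Hnrnpk passed with DESeq2 (0.11, adjusted p = 0.0126), with limma-voom, with relative log expression factors, with the replicate block and without ASPS-A1 replicate 2. With library totals it had −0.096 (adjusted p = 0.0439), so no direction is given for it. Hnrnpl, Hnrnpll, Hnrnpr and Hnrnpul1 were lower and past the threshold with library totals, at −0.24, −0.22, −0.24 and −0.25. Under the offsets Hnrnpr had 0.17 and Hnrnpul1 0.099, and the Hnrnpr value rests on an annotated transcript of 21452 bases.

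The U2AF heterodimer reads the polypyrimidine tract and the AG at the end of an intron, and PTB proteins compete for the same tract. U2af1, the small subunit, measured 105.3, 103.9 and 98.7 CPM with ASPS-A1 and 78.4, 81.2 and 80.2 CPM in control. U2af2, the large subunit, measured 270.1, 296.1 and 259.2 CPM against 217.2, 214.7 and 215.8 CPM. Both rose by about the same amount, with log2 fold changes of 0.36 ± 0.055 SE (adjusted p = 1.49e-07) and 0.35 ± 0.048 SE (adjusted p = 2.03e-08). The offsets ended the call of U2af1 (−0.028, adjusted p = 0.642) and left U2af2 at 0.28. With library totals the values were 0.17 and 0.15.

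Ptbp1, which represses many alternative exons outside neurons, measured 506.9, 512.3 and 513.2 CPM with ASPS-A1 and 365.5, 355.6 and 349.7 CPM in control. It was 1.43-fold higher (0.52 ± 0.046 SE, adjusted p = 1.35e-13), or 0.32 with library totals, and its 3 treated libraries lay within a narrow range far above the control group. By contrast Ptbp3, the paralog typical of blood cells, measured 145.6, 137.6 and 140.8 CPM against 177.3, 180.2 and 180.2 CPM and was 1.27-fold lower (−0.34 ± 0.048 SE, adjusted p = 3.02e-08). Its value was −0.54 with library totals and −0.13 with the offsets. Ptbp1 shares 20.7% of its exon length with neighbours, of which Plppr3 went the other way, from 6.88 to 2.48 CPM (adjusted p = 9.98e-09).

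**Figure D2:**
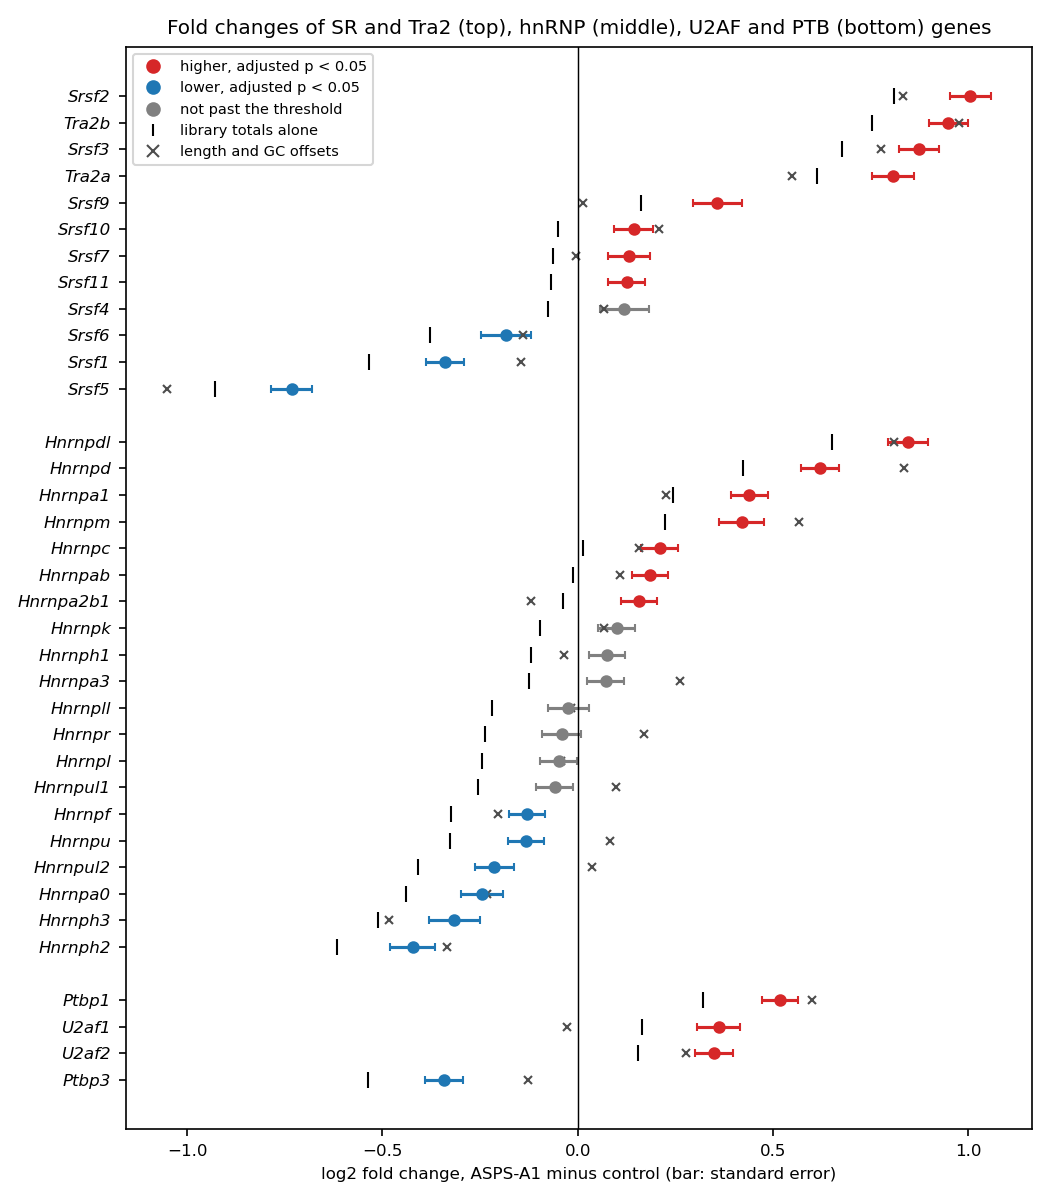
Log2 fold changes (ASPS-A1 minus control) of the 36 tested genes with standard errors as bars, coloured by call, with the value under scaling by library totals alone (vertical tick) and under length and GC offsets (cross). The ticks lie about 0.20 to the left of the points, and the crosses of Srsf9 and U2af1 lie near 0.

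Ratios of related genes within a library do not depend on how libraries are scaled, but these were not corrected for transcript length or GC content. Ratios were taken for 12 pairs, chosen after the values of single genes were seen. The groups did not overlap for 10 of the 12. No such share was taken for other gene pairs, and among single genes tested the groups did not overlap for 68.5%. Because of that choice the ratios are read as descriptions. An exact permutation test of 3 against 3 libraries cannot give a p-value under 0.1, so it decides nothing here. The Srsf2 to Srsf5 ratio was 3.59, 3.12 and 3.52 with ASPS-A1 and 1.04, 1.03 and 1.00 in control, so that genes of near-equal count in control differed more than 3-fold in the treated cells. The Ptbp1 to Ptbp3 ratio was 3.48, 3.72 and 3.65 against 2.06, 1.97 and 1.94. The Srsf3 to Srsf7 ratio passed 1 in every ASPS-A1 library (1.248, 1.385 and 1.301) and was below 1 in every control library (0.866, 0.761 and 0.735).

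The Srsf1 to Srsf9 ratio was 2.87 ± 0.319 with ASPS-A1 and 4.65 ± 0.270 in control (SD, n = 3), and the Hnrnph1 to Hnrnph2 ratio was 3.04 ± 0.231 against 2.15 ± 0.135. With the length and GC offsets the log2 fold changes of Srsf1 and Srsf9 were −0.15 and 0.014. These lie closer together than the −0.34 and 0.36 without the offsets. Hnrnpa1 to Hnrnpa2b1 went from 2.47 ± 0.0726 to 3.01 ± 0.00792. Tra2a to Tra2b shifted least among the 10, from 0.795 ± 0.0367 to 0.722 ± 0.0165. The log2 fold changes of Tra2a and Tra2b, 0.81 and 0.95, lay further apart with the offsets, at 0.55 and 0.98. The ratio of U2af1 to U2af2 (0.374 ± 0.0205 against 0.370 ± 0.00881) and that of Hnrnpl to Hnrnpll (2.27 ± 0.121 against 2.31 ± 0.156) overlapped between the groups.

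**Figure D3:**
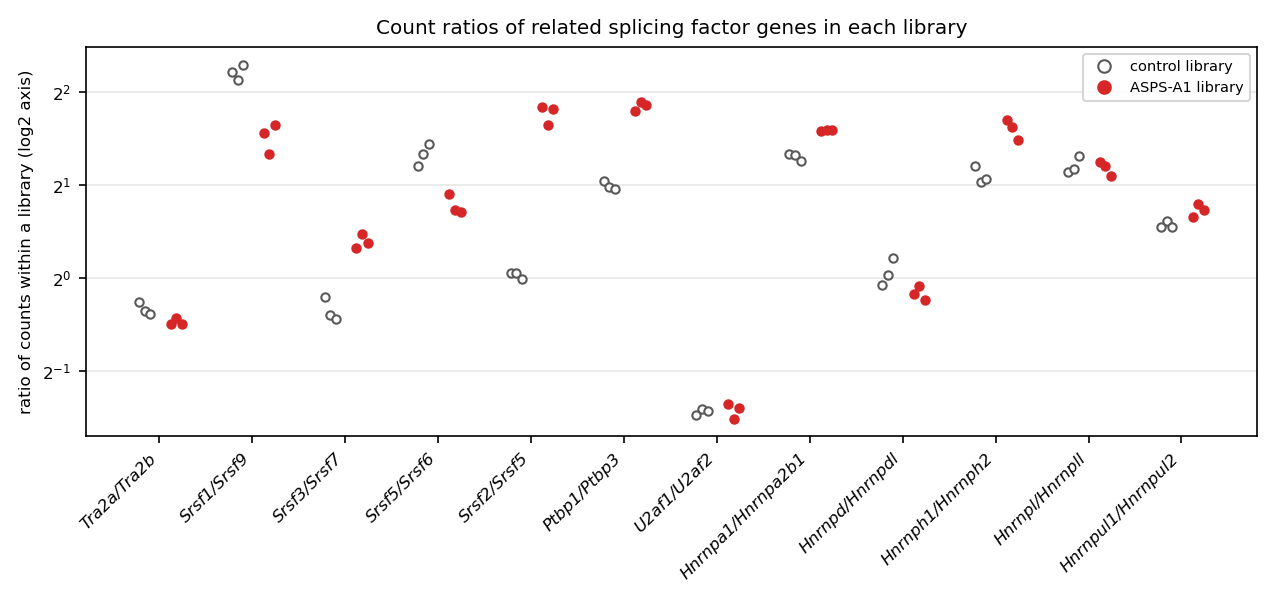
Ratio of the counts of 2 related genes within each library (log2 axis) for 12 pairs, with control libraries as open and ASPS-A1 libraries as filled circles. The Srsf2 to Srsf5 pair joins the largest rise and the largest fall, and the U2af1 to U2af2 and Hnrnpl to Hnrnpll ratios overlap.

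Levels of different genes were compared per kilobase of the longest annotated coding transcript. In control, Hnrnpa1 stood highest at 695 CPM per kb (661 to 715 over the libraries), followed by Hnrnpf at 319 and Hnrnpa2b1 at 312, whose ranges (318 to 319 and 307 to 317) nearly touch. Hnrnpk, Hnrnpa3 and Hnrnpc followed at 234, 232 and 212 CPM per kb. The range of Hnrnpa3 (217 to 243) overlapped those of both Hnrnpk (230 to 239) and Hnrnpc (203 to 219). The 12 tested SR and Tra2 genes lay below these 6, from 17.1 for Srsf6 to 97.0 for Srsf5, a range that many other hnRNP genes shared (Hnrnpm at 17.8 and Hnrnpu at 64.8, for example), with Srsf2 at 82.0 and Srsf11 at 72.8. Srsf9, Srsf1 and Srsf7 lay together at 47.8, 48.0 and 48.1. With ASPS-A1 the order within the family changed: Srsf2 led at 164, Tra2a followed at 97.7 and Srsf5 dropped to 58.4 CPM per kb. Hnrnpr has an annotated transcript of 21452 bases, which makes its 5.66 CPM per kb a low estimate.

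Fold changes in these libraries fell with transcript length, with a Spearman correlation of −0.386 across 11237 genes, which share libraries and are not replicates, and of −0.324 over the 36 splicing factor genes. The 18 genes that rose had a median transcript length of 2510.5 bases (1046 to 6811) and the 10 that fell 3757.5 bases (1568 to 7640), while the median over all genes tested was 3097. With the length and GC offsets the values of Srsf9 (0.36 to 0.014), U2af1 (0.36 to −0.028), Hnrnpul2 (−0.21 to 0.038), Hnrnpu (−0.13 to 0.084), Ptbp3 (−0.34 to −0.13) and Srsf1 (−0.34 to −0.15) shrank or turned. Those of Srsf5, with 1568 bases, and Hnrnpd, with 6811 bases, moved away from 0, to −1.05 and 0.84.

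Many of these genes have annotated isoforms that the decay pathway removes. In GENCODE, 25 of the 36 tested genes (69.4%) have a transcript classed as a target of nonsense-mediated decay, against 30.1% of the protein-coding genes tested. The share was 11 of 12 among SR and Tra2 genes, with Srsf10 the exception, and 10 of 20 among hnRNP genes. These genes also have more annotated transcripts, with a median of 9 against 5. Counts per gene add up all isoforms, so a rise or fall here does not say which isoform carried it.

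Other splicing gene lists are given by their counts, to be read against the 32.4% of all genes tested that were higher and the 33% that were lower (21.6% and 46.7% with library totals, 32.3% and 30% with the length and GC offsets). No test set a list against other genes. All 7 tested genes of the Sm ring, the protein core of the spliceosomal snRNPs, were higher (6 with library totals, and 3 higher and 1 lower with the length and GC offsets, where the list median went from 0.53 to −0.0029), with Snrpd2 at 153 ± 12.8 against 76.0 ± 6.35 CPM (log2 fold change 1.01), Snrpg at 0.72 and Snrpd3 at 0.68. Of 15 U1, U2 and SF3 genes, 10 were higher and 1 lower (9 and 2 with library totals, 11 and 3 with the offsets). Sf3b4 (0.73), Phf5a (0.68) and Sf3b5 (0.64) rose, and Sf3b1, the branch point protein often mutated in blood disorders, fell from 551 ± 22.2 to 426 ± 32.2 CPM (−0.37). The number lower in that list was 2 with upper-quartile factors and without ASPS-A1 replicate 2.

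Of 16 genes of the U4/U6.U5 tri-snRNP, 11 were higher and 3 lower (9 and 4 with library totals, 13 and 1 with the offsets). Prpf31 rose from 42.5 ± 1.16 to 79.4 ± 4.20 CPM (0.90), with Usp39 at 0.76 and Snrnp40 at 0.65. The helicase Ddx23 (−0.50), Prpf4 (−0.33) and Prpf8 (−0.12), the scaffold of the catalytic centre, fell. With the offsets Prpf4 had −0.11 (adjusted p = 0.214) and Prpf8 0.16. Of 13 genes of the Prp19 complex, which activates the spliceosome, 10 were higher and 1 lower (7 and 2 with library totals, 10 and 0 with the offsets). Bud31 (1.07), Cwc15 (0.87) and Isy1 (0.66) led, and Aqr had −0.29, or −0.066 (adjusted p = 0.303) with the offsets.

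Of 10 genes for kinases and importers of SR proteins, 6 were lower and 1 higher (6 and 0 with library totals, 5 and 3 with the offsets). Clk2 (−0.41) and Clk4 (−0.36), which phosphorylate SR proteins in the nucleus, and Srpk2 (−0.36), which does so in the cytoplasm, fell, while the import receptor Tnpo1 had 0.19, or −0.0012 with library totals. Of 18 SR-related genes, 8 were lower and 4 higher (14 and 1 with library totals, 4 and 8 with the offsets). Srrm2, a scaffold of nuclear speckles, fell from 367 ± 15.3 to 188 ± 7.69 CPM (−0.97 ± 0.048 SE, adjusted p = 2.78e-22), and Arglu1 (−0.77) and Luc7l3 (−0.71) also fell. Rnps1 (0.37) and Rbm39 (0.29) rose, and Acin1 had 0.13, or −0.063 with library totals. The number higher was 2 with upper-quartile factors, with no filter on low counts, and without ASPS-A1 replicate 1 or 3 or control replicate 1 or 3.

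Of 15 genes of the exon junction complex and nonsense-mediated decay, 9 were higher and 3 lower (5 and 6 with library totals, 8 and 0 with the offsets, and 5 lower with upper-quartile factors). The exon junction core genes Magohb (1.07), Rbm8a (1.00, from 101 ± 3.41 to 203 ± 3.54 CPM) and Magoh (0.81) rose. The decay kinase Smg1 (−0.32), the decay helicase Upf1 (−0.26) and Casc3 (−0.23) fell. All 3 lost their calls with the offsets, with Smg1 at −0.095 (adjusted p = 0.0546), Upf1 at 0.010 and Casc3 at −0.0625 (adjusted p = 0.382). Of 35 other RNA-binding regulators, 16 were higher and 8 lower (10 and 17 with library totals, 20 and 5 with the offsets, and 5 lower without control replicate 1). Ybx1 (0.86), Ddx39b (0.76) and Taf15 (0.70) rose, and Rbm5 (−1.02) and the translation repressor Tia1 (−0.93) fell. Mbnl3 had −1.03 from a level near 1 CPM (adjusted p = 0.0286).

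**Figure D4:**
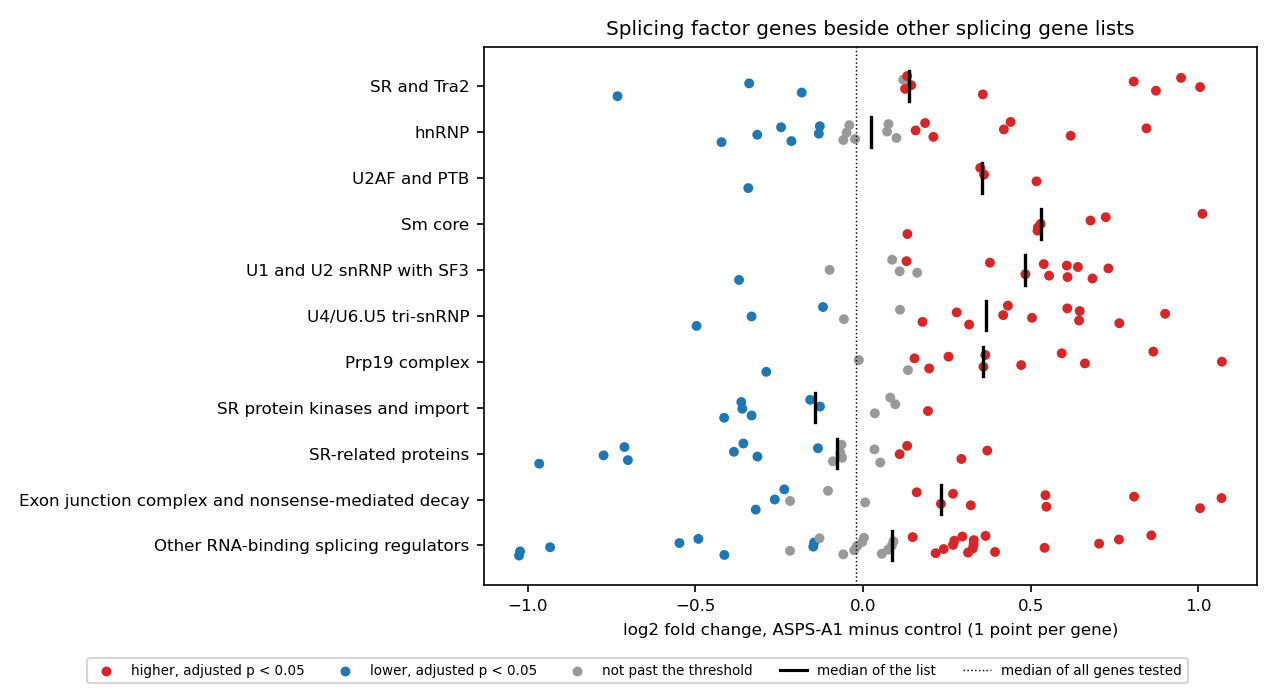
Log2 fold changes (ASPS-A1 minus control) of each tested gene, 1 point per gene coloured by call, for the SR and Tra2, hnRNP, and U2AF and PTB genes and for 8 other splicing gene lists, with list medians as bars. The dotted line is the median of all genes tested (−0.021), and the list medians run from −0.14 (SR kinases and importers) to 0.53 (Sm core) on this scale, which become −0.039 and −0.0029 with the length and GC offsets.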

How the data were processed

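Polyadenylated RNA of 6 RAW 264.7 libraries was sequenced, per the labels' protocols. The authors deposited whole-number read counts per gene symbol, not normalized. Per the submitters' processing notes the tools were HTSeq 0.9.1, HISAT2 2.1.0, DESeq 1.38.3 and fastp 0.22.0, while genome build, annotation and strand setting were not given in the sources used here. Of 22192 genes, 5884 had no count and 11686 passed filterByExpr (minimum count 10, minimum total 15). edgeR 4.0.16 in R 4.3.3 was fitted with TMM factors and robust quasi-likelihood on all 6 libraries without a block, two-sided. The common biological coefficient of variation was 5.66%. The SE was taken as the size of the log2 fold change over the square root of F. The alternatives were relative log expression and upper-quartile factors, library totals alone, DESeq2 1.42.0, limma-voom (limma 3.58.1), no filter on low counts, at least 1 CPM in 3 libraries, a replicate block, leaving out each library, and length and GC offsets (lowess span 0.3, GENCODE M21, lengths for 96.2% of genes tested). Leave-one-out fits of the paralog ratios were added after seeing the data. The model and offsets were tested on simulated data. No library was a copy of another: within groups the chi-square of the counts was 4.21 to 6.80 times its degrees of freedom.

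The genes and lists were chosen with earlier results of these data known, and the paralog pairs after the values of single genes were seen. Every gene of the symbol rule is reported. Library values are given for up to 4 genes per family and direction by fold change and the 2 most abundant. From each other list up to 3 called genes per direction are named. Qk of the lists was matched to Qki by synonym. The level of 1 marker gene is not reported here.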

Additional observations from a re-analysis of the deposited data

How the results depend on the processing

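Over all genes tested 3783 were higher and 3852 lower. The library numbers did not pair the samples, with correlations of same-numbered deviations of −0.00715, 0.00497 and 0.00757. With the replicate block 19 of the 36 splicing factor genes were higher and 10 lower. The median log2 fold change of the 36, 0.12, was 0.070 with upper-quartile factors, −0.073 with library totals and 0.076 with the length and GC offsets, and ranged from 0.083 to 0.12 when 1 library was left out, lowest without control replicate 1. Those fits gave 16 to 19 higher and 8 to 10 lower. With library totals 17 of the 36 genes were lower, 5 SR and Tra2 genes were higher (also 5 with upper-quartile factors), and 4 hnRNP genes were higher and 13 lower. Of all genes, 21.6% were higher and 46.7% lower with library totals, and 3441 were higher with upper-quartile factors. Library totals turned the sign of Hnrnpa3 (−0.12), Srsf11 (−0.070), Srsf4 (−0.076), Srsf10 (−0.051), Hnrnpa2b1 (−0.039), Hnrnph1 (−0.12), Hnrnpab (−0.011), Hnrnpk (−0.096), Srsf7 (−0.064), Tnpo1 (−0.0012) and Acin1 (−0.063). The offsets turned Hnrnpu (0.084), Hnrnpr (0.17), Hnrnpa2b1 (−0.12), Hnrnpul1 (0.099), Hnrnph1 (−0.034), U2af1 (−0.028), Srsf7 (−0.0050), Hnrnpul2 (0.038), Prpf8 (0.16) and Upf1 (0.010). Hnrnpll, not past the threshold, ranged from −0.048 without control replicate 3 to 0.012 without ASPS-A1 replicate 1. The causes were not tested. Srsf12 was too low to test.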
